A study of Homo sapiens with 6 samples.

Results

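PTX3 and the colony-stimulating factors CSF1, CSF2 and CSF3 are 4 secreted products, taken here by gene symbol from a table of 60623 genes measured in LX2 cells. All 4 were found, all 4 are protein-coding, and all 4 had a mean level of at least 1 FPKM, the minimum that left 10865 genes for testing. CSF3 reached it only through the siNC libraries. PTX3 and CSF2 were picked because their levels in these same libraries were far lower after SHMT2 knockdown. CSF1 and CSF3 complete the colony-stimulating factor family. The values of the 4 genes are therefore given as a description, without a test.

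LX2 is a human line of hepatic stellate cells, the collagen-forming cells of liver, kept here in 2% serum. It is a single line and stands in for stellate cells of the organ only as far as one line can. The tested libraries came from cells transfected for 36 h with an siRNA against SHMT2 (siSHMT2, 3 libraries), and the comparison libraries from cells transfected for the same time with a control siRNA (siNC, 3 libraries). The enzyme SHMT2 sits in mitochondria and splits serine into glycine and a folate-bound carbon unit. The genotype of all cells is labelled WT, both groups went through transfection, and the siRNA sequences were not used here. With a single siSHMT2 group, effects of low SHMT2 and other effects of the siRNA cannot be told apart. Whether the replicates were separate cultures is not stated in the labels. A p-value here thus reflects library-to-library spread alone, possibly of technical origin. In bulk RNA, fewer cells making a transcript and less of it per cell cannot be told apart.

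PTX3 is a long pentraxin, a secreted pattern-recognition protein that binds microbes and complement components and holds together the hyaluronan-rich matrix around cells. It is made where inflammation occurs, by fibroblasts, endothelial cells and phagocytes exposed to interleukin-1 or tumour necrosis factor. CSF1 (M-CSF), CSF2 (GM-CSF) and CSF3 (G-CSF) are growth factors of the myeloid lineage. CSF1 keeps macrophages alive and is made steadily by many stromal cells, whereas CSF2 and CSF3 are usually induced by inflammatory signals and carry AU-rich elements that shorten the life of their mRNAs. In liver, stellate cells are one stromal source of cytokines acting on macrophages and neutrophils.

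Recovered reads numbered 14722344 to 15669139 per library. SHMT2 itself was at 2.26, 2.10 and 2.42 FPKM in siSHMT2 libraries, against 40.8, 56.3 and 45.1 FPKM in siNC libraries, so the target was low in each library labelled as knockdown. Summed markers of stellate cells were 746 to 845 FPKM in siSHMT2 libraries and 1081 to 1230 FPKM in siNC libraries, with 7 of 15 genes at or above the minimum, VIM highest and LRAT at 0 throughout. Of 9 macrophage and leukocyte markers only CD14 reached the minimum, the summed level was 13.6 to 15.4 FPKM in siSHMT2 libraries and 14.6 to 19.5 FPKM in siNC libraries, and ITGAM, CD3E, CD163 and LYZ were at 0. None of 8 hepatocyte markers reached it (summed 0.299 to 0.457 FPKM in siSHMT2 libraries and 0.332 to 1.36 FPKM in siNC libraries, FGB and TTR at 0), nor did any of 6 endothelial markers (0.310 to 0.435 FPKM in siSHMT2 libraries and 0.416 to 0.626 FPKM in siNC libraries, CLEC4G at 0). Cholangiocyte and epithelial markers summed to 8.72 to 9.66 FPKM in siSHMT2 libraries and 9.82 to 11.2 FPKM in siNC libraries, with 2 of 5 genes at or above the minimum and SOX9 highest. The part of the lower stellate marker sum in the results below was not tested.

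PTX3 was the most abundant of the 4 transcripts in both groups and was 7.16-fold lower after knockdown. The gene (ENSG00000163661, chr3:157436850-157443633, plus strand) has 3 exons. Its level was 20.1, 24.4 and 22.8 FPKM in siSHMT2 libraries, from 608, 763 and 678 reads, against 153, 158 and 171 FPKM in siNC libraries, from 5047, 4312 and 5063 reads. The groups lay far apart, and within each group the libraries were close: the highest was 1.21 times the lowest in siSHMT2 libraries and 1.12 times in siNC libraries. The means were 22.4 ± 2.17 FPKM in siSHMT2 libraries and 161 ± 9.10 FPKM in siNC libraries (SD, n = 3 each), so siSHMT2 cells held 14.0% of the siNC level. On the log2(FPKM + 1) scale the difference was -2.79 (SE 0.12), the 3rd lowest of the 10865 genes. Among protein-coding genes ordered by level, PTX3 stood between positions 1834 and 2201 in siSHMT2 libraries and between positions 246 and 331 in siNC libraries.

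CSF2 was lower by a similar factor from a level several times below that of PTX3. It lies at chr5:132073789-132076170 on the plus strand (ENSG00000164400, 4 exons). Levels were 3.88, 2.83 and 4.98 FPKM in siSHMT2 libraries, from only 49, 37 and 62 reads, against 26.3, 35.1 and 31.8 FPKM in siNC libraries, from 362, 401 and 395 reads. The siSHMT2 libraries were all low and the siNC libraries all high, with no overlap. The spread among siSHMT2 libraries was wider than for PTX3, and an exact Poisson interval at 95% for the lowest, replicate 2, ran from 1.99 to 3.90 FPKM, which covers counting error only. Means were 3.90 ± 1.07 FPKM in siSHMT2 libraries and 31.1 ± 4.48 FPKM in siNC libraries (SD, n = 3 each), or 12.5% of the siNC level and 7.98-fold lower. The log2 difference was -2.73 (SE 0.18), the 5th lowest of all genes tested.

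CSF3, the granulocyte factor, was the scarcest and the most variable of the 4. The gene (ENSG00000108342) spans chr17:40015361-40017813 on the plus strand. It had 1.04, 0.435 and 1.08 FPKM in siSHMT2 libraries, from 37, 16 and 38 reads, against 1.91, 6.28 and 3.49 FPKM in siNC libraries, from 74, 202 and 122 reads. Replicate 2 was the lowest siSHMT2 library and replicate 2 the highest siNC library, and the groups did not overlap. Within siNC the highest library held 3.30 times the lowest, and within siSHMT2 2.49 times. Means were 0.852 ± 0.362 FPKM in siSHMT2 libraries and 3.89 ± 2.22 FPKM in siNC libraries (SD, n = 3 each), 21.9% of the siNC level. The log2 difference of -1.32 (SE 0.32) understates the 4.57-fold ratio of means, because a pseudocount of 1 is large beside these levels. With a pseudocount of 0.1 it was -2.0.

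CSF1, the macrophage survival factor, was 1.29-fold lower. It is the longest of the 4 genes (ENSG00000184371, chr1:109910242-109930992, plus strand, 9 exons in the transcript with the longest 3′ UTR). Its level was 4.61, 3.49 and 4.0 FPKM in siSHMT2 libraries, from 387, 303 and 331 reads, against 5.19, 5.18 and 5.18 FPKM in siNC libraries, from 476, 393 and 427 reads. The groups did not overlap in the deposited FPKM, but the nearest libraries were only 0.14 apart on the log2 scale. Means were 4.03 ± 0.561 FPKM in siSHMT2 libraries and 5.18 ± 0.00874 FPKM in siNC libraries (SD, n = 3 each), 77.8% of the siNC level. The near-identical siNC values are closer together than the counting error of any 1 of them. The log2 difference was -0.30 (SE 0.11), and 17.4% of all tested genes were lower still. CSF1 did overlap between groups under other scalings: with values rescaled to the same total in every library (TPM) it stood at 11.2 to 13.6 TPM in siSHMT2 libraries and 13.3 to 16.7 TPM in siNC libraries, and plain read sums also gave an overlap.

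In the deposited FPKM every siSHMT2 library was below every siNC library for 4 of the 4 genes, a pattern that 18.6% of all tested genes also showed. It held for 3 of the 4 in TPM and with plain read sums. Since the comparison helped choose the genes, nothing is read from that count. The order of levels differed between groups. In siSHMT2 libraries PTX3 was highest, CSF1 and CSF2 overlapped at 3.49 to 4.61 FPKM and 2.83 to 4.98 FPKM, and CSF3 was lowest. In siNC libraries PTX3 was followed by CSF2, and then by CSF1 and CSF3, whose ranges overlapped.

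**Figure D1:**
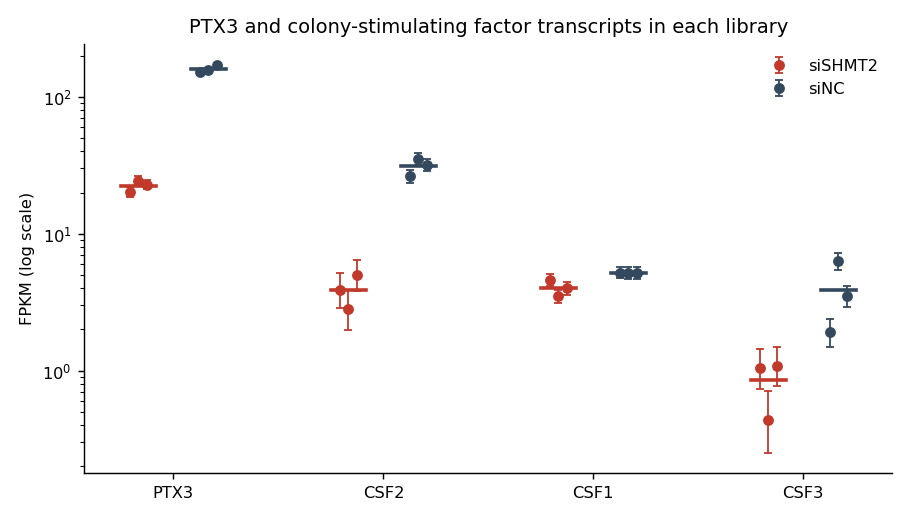
FPKM (log scale) of PTX3, CSF2, CSF1 and CSF3 in each of the 3 siSHMT2 and 3 siNC libraries. Points are libraries with exact Poisson intervals at 95% on their reads (counting error only), and bars are group means. PTX3 sits at 20.1 to 24.4 FPKM in siSHMT2 libraries and at 153 to 171 FPKM in siNC libraries, whereas CSF1 differs by 1.29-fold in its means.

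Ratios within a library do not depend on how libraries were scaled. PTX3 over CSF2 was 5.19, 8.63 and 4.57 in siSHMT2 libraries and 5.83, 4.50 and 5.36 in siNC libraries. These ranges overlap. CSF2 over CSF1 was 0.842, 0.812 and 1.25 in siSHMT2 libraries, against 5.06, 6.78 and 6.15 in siNC libraries. PTX3 over CSF1 was 4.37, 7.0 and 5.70 in siSHMT2 libraries, against 29.5, 30.5 and 33.0 in siNC libraries. Both sets of ratios are well separated between groups. PTX3 and CSF2 were picked for their low levels in these same libraries, so this separation is a description and no further support. CSF2 over CSF3 was 3.73, 6.52 and 4.60 in siSHMT2 libraries and 13.8, 5.59 and 9.12 in siNC libraries, which overlap.

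**Figure D2:**
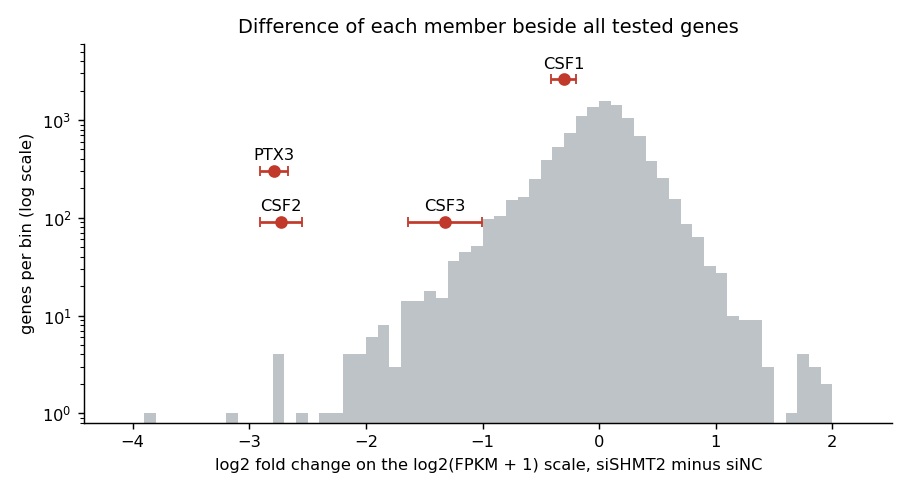
Log2 fold change of all 10865 tested genes (grey histogram, log count axis) and of the 4 genes (red points, bars are SE, heights arbitrary), siSHMT2 minus siNC. PTX3 at -2.79 and CSF2 at -2.73 lie at the far left edge, CSF3 at -1.32 in the lower tail, and CSF1 at -0.30 inside the bulk.

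Profiles over the 6 libraries were compared by the root mean square (RMS) distance between log2(FPKM + 1) values, each gene centred on its own mean. Among the 4, PTX3 and CSF2 were nearest to each other at 0.25, and PTX3 and CSF1 farthest apart at 1.26. The 3 protein-coding genes nearest to PTX3 were CXCL8 at 0.08, CLDN11 at 0.18 and NAA50 at 0.21. CXCL8, the neutrophil chemokine interleukin-8, averaged 6.49 ± 0.361 FPKM in siSHMT2 libraries and 48.2 ± 2.39 FPKM in siNC libraries. CLDN11, a tight-junction claudin, averaged 29.1 ± 2.52 FPKM in siSHMT2 libraries and 198 ± 15.4 FPKM in siNC libraries. NAA50, an N-terminal acetyltransferase, averaged 3.85 ± 0.589 FPKM in siSHMT2 libraries and 27.4 ± 0.238 FPKM in siNC libraries. The same 3 genes were nearest to CSF2, with NAA50 first at 0.17. With 6 libraries in 2 groups, such a distance is set mostly by the size of the group difference.

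CSF3 had other neighbours, which share its high value in siNC replicate 2. They were ISG15, an interferon-induced ubiquitin-like protein (RMS distance 0.15), IL4I1, a secreted amino acid oxidase (0.16), and GMFG, an actin regulator of blood cells (0.17). ISG15 averaged 493 FPKM in siSHMT2 libraries and 1168 FPKM in siNC libraries. CSF1, with its small difference, was nearest to GAPDH, the glycolytic enzyme often used for normalisation (0.03), then to SLC29A1, a nucleoside transporter (0.05), and TAPBPL, a peptide-loading chaperone of MHC class I (0.05). GAPDH averaged 944 FPKM in siSHMT2 libraries and 1197 FPKM in siNC libraries.

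**Figure D3:**
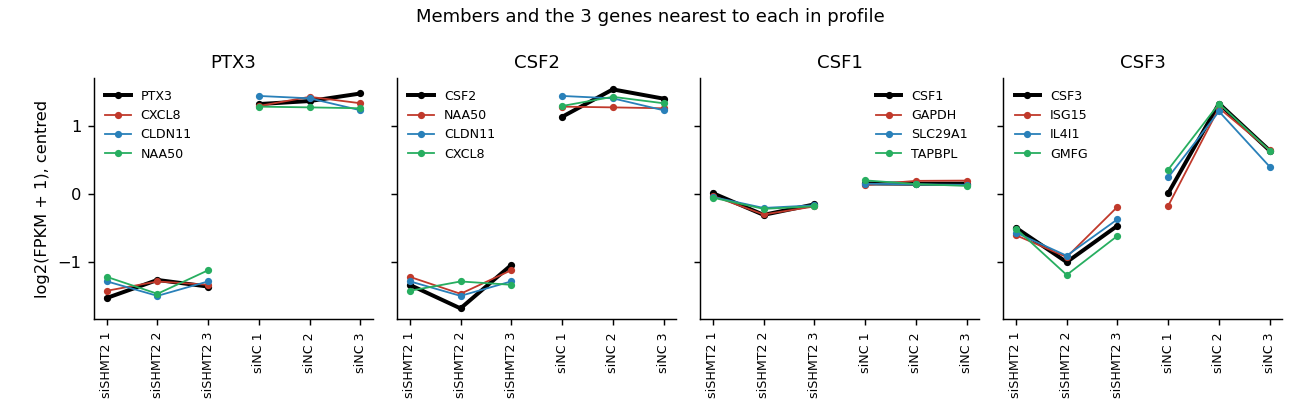
Centred log2(FPKM + 1) of PTX3, CSF2, CSF1 and CSF3 (black) and the 3 nearest protein-coding genes (colours) in each library, siSHMT2 left of siNC. PTX3 and CSF2 share CXCL8, CLDN11 and NAA50 as neighbours, and CSF3 and its neighbours peak in siNC replicate 2.

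Promoters were looked up for all 4 genes. The RefSeq promoter table (GRCh38.p14) matched 2 of the 4 genes, PTX3 and CSF2, so only these are shown. Each window runs from 250 bases before the start to 50 after it, read 5′ to 3′ on the plus strand. Capitals mark, in order, the C/EBP match and the kappa B match in PTX3, and the CSF box and the kappa B match in CSF2. The PTX3 window is chr3:157436600-157436899 and the CSF2 window chr5:132073539-132073838.
PTX3 promoter: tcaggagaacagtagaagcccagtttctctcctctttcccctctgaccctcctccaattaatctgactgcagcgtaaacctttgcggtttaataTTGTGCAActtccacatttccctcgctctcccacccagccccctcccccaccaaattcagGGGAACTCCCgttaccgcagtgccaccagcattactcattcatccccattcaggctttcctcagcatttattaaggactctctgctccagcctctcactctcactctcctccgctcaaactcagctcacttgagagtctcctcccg
CSF2 promoter: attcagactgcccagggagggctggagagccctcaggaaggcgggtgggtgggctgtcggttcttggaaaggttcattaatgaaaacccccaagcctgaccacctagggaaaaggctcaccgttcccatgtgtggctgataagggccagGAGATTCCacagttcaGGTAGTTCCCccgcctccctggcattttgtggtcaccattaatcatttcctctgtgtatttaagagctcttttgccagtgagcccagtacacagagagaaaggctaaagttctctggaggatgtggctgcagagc
Motifs were searched on both strands. The kappa B pattern GGGANNNNCC matched at -96 to -87 in PTX3, as GGGAACTCCC, and on the minus strand at -85 to -76 in CSF2, as GGGAACTACC, and 25.6% of 35116 promoters hold it. The CSF box GAGATTCC, an element first described in colony-stimulating factor promoters, matched at -101 to -94 in CSF2, and 0.869% of promoters hold it. The C/EBP pattern TTNNGNAA matched at -156 to -149 in PTX3, and 36.8% of promoters hold it. The AP-1 pattern TGANTCA (7.71% of promoters) and the TATA pattern TATAAA (11.5%) had no match in either window. None of these matches overlaps another. A match is a string of letters and not evidence of binding.

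The 3′ UTRs are shown because CSF2 and CSF3 are textbook AU-rich transcripts. In the longest annotated 3′ UTR of GENCODE 29 (GRCh38), CSF2 held 8 copies of the AU-rich pentamer ATTTA in 318 bases, or 25.2 per kilobase, and only 2 of 9386 searched genes held more per kilobase. CSF3 held 7 in 854 bases (8.20 per kilobase), PTX3 4 in 649 bases (6.16 per kilobase) and CSF1 4 in 2154 bases (1.86 per kilobase). The median of the searched genes was 1.63 per kilobase, and 73.0% of genes held at least 1. The longer element TTATTTATT occurred 3 times in CSF2 and not in the other 3 members, and 8.82% of genes hold it. The following sites, each on the plus strand, show the pentamers in capitals.
CSF2, chr5:132076077-132076106: aaatATTTATTTATTTATTTATTTAagttc
CSF2, chr5:132076048-132076077: tcagtaatATTTAtatATTTAtatttttaa
CSF3, chr17:40016979-40017008: atgtATTTAtctctATTTAatATTTAtgtc
PTX3, chr3:157443592-157443621: cacgtcATTTAattataaATTTAagagatg
CSF1, chr1:109930918-109930947: aaagtcATTTAaatatctATTTAaaagata
In the first CSF2 site pentamers overlap head to tail in 1 run, whereas in the other sites shown they stand apart. Pentamers per kilobase were above those of 98.4% of searched genes for CSF3, 95.5% for PTX3 and 54.2% for CSF1. Any part of these elements in the differences between groups was not tested.

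The 7-base words GACTTTA and ACTTTAA were also searched, since they had been picked earlier on these same fold changes, which makes their presence a description only. PTX3 held GACTTTA once, in the site below, where it is in capitals, and 11.7% of genes hold at least 1 copy. CSF1, CSF2 and CSF3 held neither word, and 24.6% of genes hold at least 1 of them.
PTX3, chr3:157443178-157443207: taatgttactaGACTTTAtgccatggtgct
Of the 3 genes nearest to PTX3 in profile, CLDN11 held GACTTTA 1 time, CXCL8 held ACTTTAA 3 times and NAA50 held each word 3 times. More than 1 copy is held by 1.33% of genes for GACTTTA and by 4.86% for ACTTTAA. The NAA50 3′ UTR is long, at 5300 bases against a median of 1326. These genes were also far lower in siSHMT2 libraries, so their copies too are a description only.

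**Figure D4:**
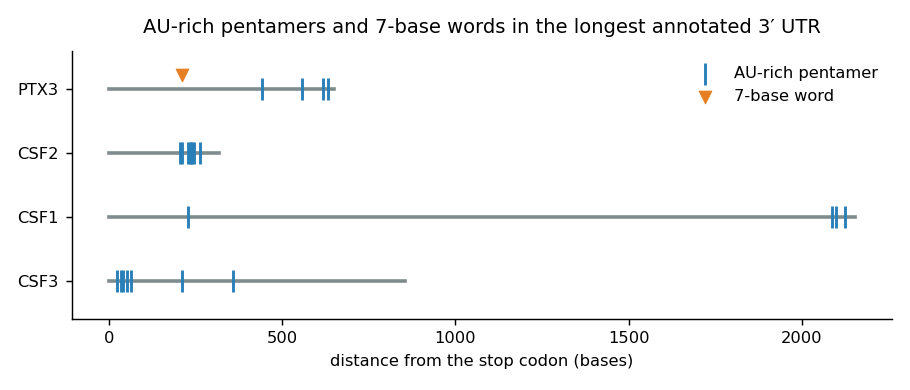
Position of AU-rich pentamers (blue ticks) and of a 7-base word (orange triangle) along each gene's longest annotated 3′ UTR (grey line), in bases from the stop codon. CSF2 carries 8 pentamers within 318 bases, CSF1 4 within 2154 bases, and only PTX3 carries a 7-base word.

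The receptors of the colony-stimulating factors were near or at 0, and none of 5 reached the minimum for testing. CSF1R, the receptor of CSF1, had 0.339, 0.164 and 0.282 FPKM in siSHMT2 libraries, from 14 to 28 reads, and 0.422, 0.442 and 0.530 FPKM in siNC libraries, from 33 to 43 reads. CSF3R had no read in any library. CSF2RB had 3 reads in siSHMT2 replicate 1 and none elsewhere, and CSF2RA had 1 read in siNC replicate 2 and none elsewhere. IL3RA was at 0.182 to 0.370 FPKM in siSHMT2 libraries and 0.10 to 0.283 FPKM in siNC libraries. CSF2RA and IL3RA lie in a region shared by the X and Y chromosomes, so reads with more than 1 place to align may be missing from their counts. IL3, the growth factor next to CSF2 on its chromosome, had no read in any library.

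Across the pathway lists, 73 of 122 genes were tested with limma on log2(FPKM + 1), adjusted over all 10865 genes at 0.05. Of these 73, 18 were called lower (24.7%) and 5 higher (6.85%), beside 9.85% of all tested genes called lower and 6.07% called higher. The lists were chosen with earlier results of these data known, so these shares are a description only. FOS, among the 18, reached the minimum only through the siNC libraries. The median log2 fold change was -0.04 over the 73 and 0.02 over all genes. The lower count of the lists was 9 without siSHMT2 replicate 1, 9 without replicate 2 and 9 without replicate 3. The higher count was 1, 0 and 3 in the same order, and 3 without siNC replicate 3. Without siSHMT2 replicate 1, 2 or 3 the lower count over all genes also fell, from 1070 to 498, 592 and 547. In TPM, where the median of all genes moved to 0.11, 11 were called lower and 6 higher. Lower genes made up 61.9% of all calls in the deposited scaling, 47.5% in TPM and 49.1% with plain read sums.

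**Figure D5:**
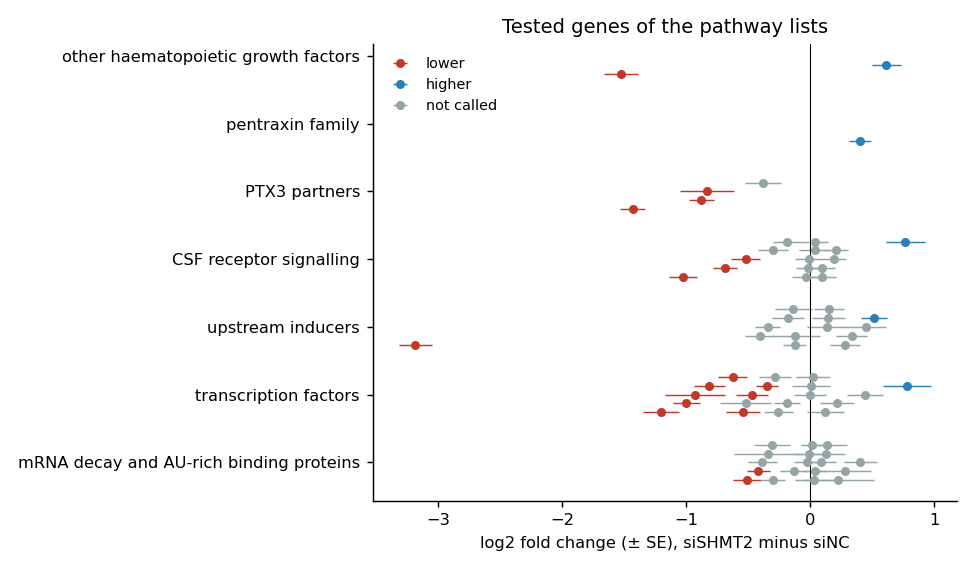
Log2 fold change with SE of the tested genes of each pathway list, siSHMT2 minus siNC, coloured by limma call at an adjusted p of 0.05. Calls lie mostly on the lower side among transcription factors (8 lower, 1 higher of 19), and most genes of CSF receptor signalling and mRNA decay lie near 0 without a call. Over all tested genes 9.85% were called lower and 6.07% higher.

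Among other haematopoietic growth factors 2 of 10 were tested, 1 called each way, beside 9.85% lower and 6.07% higher over all tested genes. CXCL12, the chemokine that holds stem cells in bone marrow, fell to 14.7 ± 0.885 FPKM in siSHMT2 libraries, against 44.7 ± 8.10 FPKM in siNC libraries (log2 -1.52, limma adjusted p = 0.000555). KITLG, the ligand of the KIT receptor, rose to 3.5 ± 0.403 FPKM in siSHMT2 libraries, against 1.93 ± 0.256 FPKM in siNC libraries (log2 0.62, limma adjusted p = 0.0111), but its call was lost without siSHMT2 replicate 2 (limma adjusted p = 0.0540). IL34, the other ligand of CSF1R, was at 0 in siSHMT2 libraries and at most 0.0927 FPKM in siNC libraries.

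Of 6 other pentraxins only NPTXR, the neuronal pentraxin receptor, was expressed above the minimum. It averaged 4.97 ± 0.0835 FPKM in siSHMT2 libraries and 3.51 ± 0.212 FPKM in siNC libraries, a call on the higher side (log2 0.41, limma adjusted p = 0.0203), opposite to PTX3. That call was lost without siSHMT2 replicate 1, 2 or 3 (limma adjusted p = 0.104, 0.0757 and 0.0885). CRP, the classical short pentraxin of liver, was at 0 in siSHMT2 libraries and at most 0.0284 FPKM in siNC libraries. APCS was at 0 throughout, and PTX4, NPTX1 and NPTX2 stayed at or below 0.0590 FPKM in every library.

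Genes whose products bind or work with PTX3 were mostly absent: 4 of 17 were tested, and 8 were at 0 in all libraries (ITIH1, C1QA, C1QB, C1QC, FCN1, FCN2, MBL2 and SELP). Of the 4 tested, 3 were called lower and none higher, beside 9.85% lower and 6.07% higher over all tested genes. HAS2, which makes the hyaluronan that PTX3 helps to cross-link, fell to 1.92 ± 0.261 FPKM in siSHMT2 libraries, against 6.83 ± 0.0914 FPKM in siNC libraries (log2 -1.43, limma adjusted p = 0.000240). FGF2, a growth factor that PTX3 can bind and block, fell to 5.54 ± 0.261 FPKM in siSHMT2 libraries, against 11.0 ± 0.995 FPKM in siNC libraries (log2 -0.88, limma adjusted p = 0.00147). THBS1, a matrix protein, averaged 3.57 ± 0.564 FPKM in siSHMT2 libraries and 7.36 ± 2.76 FPKM in siNC libraries (log2 -0.83, limma adjusted p = 0.0375), a call lost without each siSHMT2 library in turn and without siNC replicate 3 (limma adjusted p = 0.0571 to 0.123). The THBS1 call was also lost in TPM, with no filter and with plain read sums (limma adjusted p = 0.112, 0.15 and 0.0818). FN1 was not called, at 25.7 ± 2.26 FPKM in siSHMT2 libraries and 34.0 ± 6.25 FPKM in siNC libraries (limma adjusted p = 0.125). TNFAIP6, the partner that moves the heavy chains of inter-alpha-inhibitor onto hyaluronan, was below the minimum, at 0.120 to 0.459 FPKM in siSHMT2 libraries and 0.263 to 0.906 FPKM in siNC libraries.

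Among signalling genes downstream of the factors' receptors 15 of 20 were tested, 3 called lower (20%) and 1 higher (6.67%), with a median of -0.01. Over all tested genes 9.85% were called lower and 6.07% higher. SOCS1, a feedback inhibitor of JAK kinases, fell to 10.2 ± 1.21 FPKM in siSHMT2 libraries, against 21.6 ± 1.65 FPKM in siNC libraries (log2 -1.02, limma adjusted p = 0.00144). JAK1, a cytokine receptor kinase, fell to 6.90 ± 0.359 FPKM in siSHMT2 libraries, against 11.7 ± 0.823 FPKM in siNC libraries (log2 -0.69, limma adjusted p = 0.00319). PTPN11, the SHP2 phosphatase, rose to 17.4 ± 2.55 FPKM in siSHMT2 libraries, against 9.83 ± 2.01 FPKM in siNC libraries (log2 0.77, limma adjusted p = 0.0166). The PTPN11 call was lost without siSHMT2 replicate 1, siSHMT2 replicate 2 or siNC replicate 3 (limma adjusted p = 0.0560 to 0.0656). The adaptors GRB2 (log2 0.21, limma adjusted p = 0.219) and SHC1 (log2 -0.01, limma adjusted p = 0.981) were not called.

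Of the ligands, receptors and kinases that induce PTX3, CSF2 and CSF3 in other cells, 14 of 21 were tested, with 1 called each way (7.14% each) and a median of 0.01. Over all tested genes 9.85% were called lower and 6.07% higher. IL1B, the interleukin-1 beta precursor, fell to 17.8 ± 1.36 FPKM in siSHMT2 libraries, against 170.5 ± 21.4 FPKM in siNC libraries (log2 -3.18, limma adjusted p = 3.9e-05). IL1R1, its signalling receptor, rose to 3.26 ± 0.329 FPKM in siSHMT2 libraries, against 1.98 ± 0.156 FPKM in siNC libraries (log2 0.51, limma adjusted p = 0.0158), and lost its call without siSHMT2 replicate 1 or 2 (limma adjusted p = 0.0684 and 0.0752). TNF was at 0 in all libraries, and IL1A was below the minimum at 0.558 to 0.715 FPKM in siSHMT2 libraries and 1.16 to 1.37 FPKM in siNC libraries. TNFRSF1A, the TNF receptor, just missed the threshold (log2 -0.34, limma adjusted p = 0.0536) and passed it without siNC replicate 1 (limma adjusted p = 0.0480). The kinase IRAK1 was not called (log2 0.15, limma adjusted p = 0.430).

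In the transcription factor list, 8 of 19 tested genes were called lower (42.1%) and 1 higher (5.26%), with a median of -0.28. Over all tested genes the shares were 9.85% lower and 6.07% higher. The list was chosen with earlier results of these data known, so its shares are a description only. Whether these factors act on PTX3 or the colony-stimulating factor genes in these cells was not tested. IRF1, an interferon-response factor, fell to 4.50 ± 0.612 FPKM in siSHMT2 libraries, against 9.96 ± 0.427 FPKM in siNC libraries (log2 -1.0, limma adjusted p = 0.00122). FOSL1, an AP-1 subunit, fell to 127 ± 13.7 FPKM in siSHMT2 libraries, against 294.5 ± 29.96 FPKM in siNC libraries (log2 -1.20, limma adjusted p = 0.00174). RUNX1, which binds the CSF2 promoter in T cells, fell to 4.53 ± 0.300 FPKM in siSHMT2 libraries, against 8.77 ± 1.55 FPKM in siNC libraries (log2 -0.81, limma adjusted p = 0.00531). These 3 calls held without each library in turn. The other lower calls were CEBPB, NFKB2, FOS, FOSL2 and JUNB, with log2 fold changes of -0.62, -0.54, -0.93, -0.35 and -0.47 in that order, and the higher call was JUND at 0.78. FOS, at 0.583 ± 0.0775 FPKM in siSHMT2 libraries and 2.14 ± 1.06 FPKM in siNC libraries, reached the minimum only through the siNC libraries, so its place among the 8 is no support. Those 6 calls were each lost without each siSHMT2 library in turn, and all but CEBPB also without siNC replicate 3, with FOS, JUNB and JUND lost without siNC replicate 1 as well (limma adjusted p = 0.0515 to 0.171 over these fits). The FOS, FOSL2 and JUNB calls were also lost in TPM (limma adjusted p = 0.0651, 0.166 and 0.132). With plain read sums the same calls were lost (limma adjusted p = 0.0572, 0.087 and 0.0918). RELA, the main activating NF-kappa B subunit, stood at 31.2 ± 3.55 FPKM in siSHMT2 libraries and 31.2 ± 5.69 FPKM in siNC libraries (limma adjusted p = 0.984). JUN was not called either, at 96.8 ± 6.99 FPKM in siSHMT2 libraries and 89.4 ± 14.4 FPKM in siNC libraries (limma adjusted p = 0.623).

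Of the proteins that bind AU-rich or other instability elements, 2 of 18 tested were called lower (11.1%) and none higher, with a median of 0.00. Over all tested genes 9.85% were called lower and 6.07% higher, so the lower share is near that of all genes. ZFP36L1, a tristetraprolin relative that speeds decay of AU-rich mRNAs, fell to 22.2 ± 1.77 FPKM in siSHMT2 libraries, against 32.0 ± 2.90 FPKM in siNC libraries (log2 -0.51, limma adjusted p = 0.0219). RC3H2, the Roquin-2 stem-loop binder, fell to 3.48 ± 0.0919 FPKM in siSHMT2 libraries, against 4.99 ± 0.401 FPKM in siNC libraries (log2 -0.42, limma adjusted p = 0.0224). Both calls were lost without each siSHMT2 library in turn (limma adjusted p = 0.0650 to 0.10 for ZFP36L1 and 0.0856 to 0.0965 for RC3H2). Both were also lost in TPM (limma adjusted p = 0.112 for ZFP36L1 and 0.143 for RC3H2). YBX1 and NCL, abundant RNA-binding proteins, were not called (limma adjusted p = 0.410 and 0.977).

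Neighbouring genes were read to see whether the differences extended along the chromosome. On each side this was the nearest protein-coding gene that reached the minimum, so genes below it were skipped. PTX3 lies inside VEPH1, which runs on the opposite strand, and in GENCODE 29 71 of 1940 exonic bases of PTX3 are shared with VEPH1 exons. The deposited PTX3 length is 1884 bases, and the deposited coordinates of PTX3 and CSF2 are not identical to those of GENCODE 29. The overlap in the exons that were counted is therefore not known. VEPH1 had 2.98, 2.92 and 3.12 FPKM in siSHMT2 libraries, against 4.56, 5.39 and 5.40 FPKM in siNC libraries (log2 -0.61, limma adjusted p = 0.00603). The sources used here do not state whether counting used strand, and reads from the shared bases can therefore not be assigned to either gene. VEPH1 reads numbered 313 to 323 in siSHMT2 libraries and 511 to 556 in siNC libraries, beside 608 to 763 PTX3 reads in siSHMT2 libraries and 4312 to 5063 PTX3 reads in siNC libraries. Beyond it, CCNL1 (276 kb away, log2 0.04, limma adjusted p = 0.886) and SHOX2 (652 kb, log2 0.17, limma adjusted p = 0.357) were not called.

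Around CSF2, neither FNIP1 (277 kb away, log2 -0.32, limma adjusted p = 0.0838) nor P4HA2 (116 kb, log2 -0.05, limma adjusted p = 0.824) was called. The nearest tested genes beside CSF1 were GSTM4, 235 kb away, and AHCYL1, 53.8 kb away. GSTM4 was not called (limma adjusted p = 0.503), and AHCYL1 was called lower (log2 -0.45, limma adjusted p = 0.0163). Beside CSF3, MED24, on the opposite strand with its 3′ end 1.28 kb away, was called higher, at 21.3 ± 0.377 FPKM in siSHMT2 libraries and 14.1 ± 1.54 FPKM in siNC libraries (log2 0.57, limma adjusted p = 0.0116). The AHCYL1 and MED24 calls were each lost without each siSHMT2 library in turn (limma adjusted p = 0.0725 to 0.0849 and 0.0515 to 0.0676). PSMD3 on the other side of CSF3, 17.4 kb away, was not called (log2 0.30, limma adjusted p = 0.107).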

How the data were processed

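The values are FPKM as the authors deposited them (fragments relative to gene length and to a library total), 1 table with 60623 genes. The submitters' processing notes name HISAT2 2.0.5 and featureCounts 1.5.0-p3, and hg18 as the build. The coordinates in the table are not those of hg18: of 58516 gene identifiers shared with GENCODE 29 (GRCh38), 99.8% overlapped their GENCODE gene, so coordinates are printed as in the table and read as GRCh38. FPKM times length gave whole reads for 100% of values (within 0.02), and the library totals implied by the FPKM came to 0.957 to 1.13 times the sums of those reads. How the totals were rescaled is not stated in the sources used here.

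The unit is FPKM, so limma 3.58.1 (R 4.3.3) was fitted to log2(FPKM + 1), with an intensity trend, over genes whose mean FPKM reached 1, and p-values were adjusted by Benjamini-Hochberg over all of them at 0.05. Fold changes on that scale understate the change of low genes. The fit was tested on simulated reads with the same spread for every gene and library, which does not cover libraries of unequal spread. The 4 genes, the pathway lists, the naming rule and the alternatives were chosen with earlier results of these data known. The rule named per list the 3 called genes with the smallest adjusted p and the 2 most abundant uncalled ones, every receptor and pentraxin, the 3 nearest profiles and the neighbours. The further called transcription factors, IL34, IL3, TNF, IL1A and TNFAIP6 were named after their values were seen. 1 called gene of the signalling list is not reported here. Alternatives covered pseudocount, filter, scaling, voom on recovered reads, trend, library weights, a replicate block and leaving out each library. Plain read sums were added after seeing the data. Sequences come from RefSeq and from GENCODE 29 with GRCh38.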

Additional observations from a re-analysis of the deposited data

How the results depend on the processing

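PTX3, CSF2, CSF1 and CSF3 were lower in siSHMT2 libraries under all 15 alternatives that gave them a value. The alternatives reuse the libraries that helped choose the genes, so this direction is a description and no support. Leaving out each library in turn gave -2.85 to -2.72 for PTX3, -2.88 to -2.56 for CSF2, -0.385 to -0.224 for CSF1 and -1.65 to -0.984 for CSF3 on the log2 scale. CSF3 moved to -2.0 with a pseudocount of 0.1 and -2.03 with voom on recovered reads, and PTX3 to -2.94 with library weights. CSF1 and CSF3 were left out by a minimum mean of 5 FPKM, so no value was had there.

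Counts of calls moved more. Against 1070 genes lower and 659 higher, no filter gave 603 and 333 (2 higher in the pathway lists), a minimum of 5 FPKM 618 lower (2 higher in the lists), TPM 620 lower (11 lower in the lists), library weights 1976 and 1827 (11 higher in the lists), and plain read sums 767 and 796. Leaving out each library gave 498 to 1132 lower and 229 to 729 higher, with 9 to 19 lower and 0 to 6 higher in the lists. The counts fell by over 1.5 times without siSHMT2 replicate 1 (498 lower, 229 higher), replicate 2 (592, 282) and replicate 3 (547, 246), but not without siNC replicate 1 (1120, 705), 2 (1132, 729) or, for these counts, 3 (787, 524). The cause of these shifts was not tested.

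With the replicate block 696 genes were lower and 374 higher, 11 and 2 of them in the lists. Deviations of same-numbered libraries correlated at -0.0183, -0.349 and 0.243, and no siSHMT2 library correlated best with its own number, so the numbers were not taken as pairs. Of 620 values of the single genes followed under the alternatives, 92 lost a call, 6 gained one and 0 reversed. The losses fell on 16 of 27 single-gene calls, and the other 11 (SHMT2, IL1B, HAS2, CXCL12, FGF2, SOCS1, JAK1, IRF1, FOSL1, RUNX1 and VEPH1) held under each alternative that tested them. Counting error limits CSF3 (16 to 38 reads) and CSF2 (37 to 62 reads) in siSHMT2 libraries most.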
